A study of Saccharomyces cerevisiae with 2 samples.

Results

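The genes described here encode the Snf1 protein kinase complex of the budding yeast Saccharomyces cerevisiae, the Glc7-Reg1 phosphatase that opposes it, and the Mig repressors on which this switch acts. They are the 10 genes SNF1, SNF4, SIP1, SIP2, GAL83, REG1, GLC7, MIG1, MIG2 and MIG3 of 5598 named genes with a ratio on both arrays. They were chosen by name, with earlier results of these data known. Total RNA of yeast supplied with 3% pyruvate was compared with total RNA of yeast supplied with 2% glucose by hybridising both together to each of 2 microarrays. Array 1 carried pyruvate RNA in Cy3 and glucose RNA in Cy5, and array 2 carried pyruvate RNA in Cy5 and glucose RNA in Cy3. The sources used here do not give the strain, genotype, growth conditions or harvest, nor whether separate cultures or a single pair of RNA extracts went onto the arrays. The spread behind each p-value is therefore that between these arrays and may be technical.

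Yeast cells repress genes for the use of other carbon sources while glucose is plentiful. The kinase Snf1, the yeast member of the AMP-activated protein kinase family, works as a trimer with the regulatory subunit Snf4 and with Sip1, Sip2 or Gal83, which determine where in the cell the complex acts. Glc7 is a type 1 protein phosphatase that its subunit Reg1 directs to Snf1 and to its substrates, and this keeps the kinase inactive in glucose. Mig1 is a zinc finger protein that represses its target genes with the corepressor Cyc8-Tup1, and it leaves the nucleus when Snf1 phosphorylates it. Mig2 and Mig3 are relatives of Mig1 that bind similar DNA sites. Much of this regulation acts on proteins, and the arrays measured transcripts.

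Each value below is a log2 ratio of pyruvate over glucose, so 1 is a 2-fold higher transcript level in pyruvate. The direction is likely but not stated: no source names the order of the channels, Cy5 over Cy3 was assumed by convention, and the opposite order would turn every sign. Array 1, where Cy5 was glucose, had its ratios multiplied by -1. In bulk RNA, fewer cells with a transcript and less transcript per cell cannot be told apart. The 10 genes had 17 features on the array, 2 features for each of 7 genes and 1 for each of SIP1, SIP2 and MIG3. Features of a gene were averaged. The 2 features of a gene lay at most 0.09 apart on either array, and 0 of the 17 features had a ratio of small whole numbers, the kind that low signals can give, although no signals were there to compare, against 9.87% of the features of all named genes. The median ratio of all 5598 genes was 0.18 on array 1 and 0.02 on array 2. Their mean ratios had a median of 0.10, which centring each array on its median lowered by 0.10.

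In pyruvate, transcripts of the beta subunit gene SIP2 and of the repressor gene MIG1 were more than 2-fold higher than in glucose, those of the phosphatase gene GLC7 rose by a smaller amount, and those of the kinase gene SNF1 fell. By limma with Benjamini-Hochberg adjustment over all 5598 genes, 3 of the 10 genes were higher, 1 was lower and 6 did not pass an adjusted p of 0.05. Across all genes 27.1% were higher, 17.2% lower and 44.3% called in either direction, so the share called among the 10 genes was near that background. The median ratio of the 10 genes was 0.32, with 0.30 on array 1 and 0.38 on array 2. Both arrays gave the same direction for 8 of the 10, against 83.6% of all genes. The ratio was at least 2-fold higher on both arrays for 2 of the 10, against 12.7% of all genes, and at least 2-fold lower for 0 of the 10, against 4.81%. After centring, 2 of the 10 were called higher and 1 lower, against 24.9% and 22.5% of all genes and 47.4% in either direction.

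**Figure D1:**
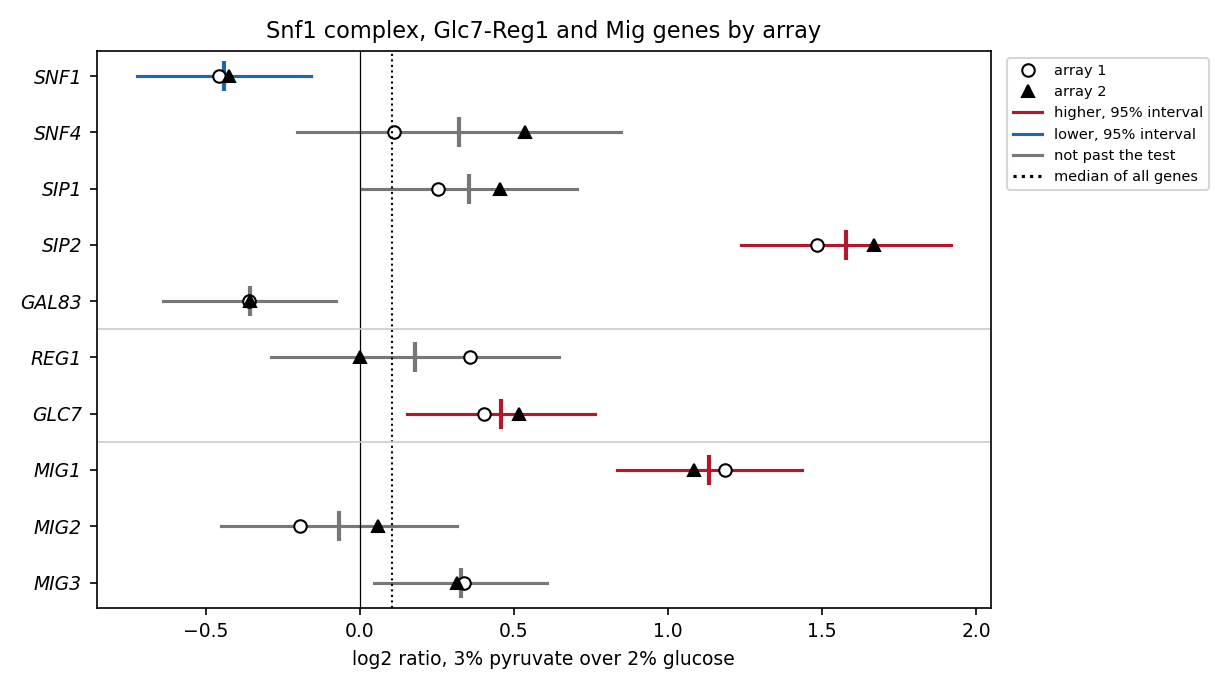
Log2 ratio of 3% pyruvate over 2% glucose (x axis) for the 10 genes (rows), with array 1 as open circles, array 2 as triangles, the mean as a vertical bar and limma's 95% interval as a line; the dotted line is the median of all genes. SIP2 and MIG1 stand to the right of the other 8 genes on both arrays, with means of 1.58 and 1.13, and SNF1 and GAL83 lie to the left of 0 on both.

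Among the kinase genes, SNF1 fell and SNF4 did not pass the test. SNF1, the catalytic subunit, had ratios of -0.46 on array 1 and -0.42 on array 2. Its features gave -0.459 and -0.455 on array 1, and -0.465 and -0.384 on array 2, so all were below 0. The mean was -0.44 ± 0.02 (SD, n = 2), which is 1.36-fold lower in pyruvate, with a limma adjusted p of 0.0424 and a 95% interval from -0.72 to -0.16. Relative to the median of each array it was -0.54, with an adjusted p of 0.0321. The call was near the threshold when features of named genes were fitted one by one, an alternative added after the values were seen. The larger limma adjusted p of its 2 features was then 0.0506.

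SNF4 encodes the gamma subunit, which releases the kinase domain from autoinhibition. Its ratios were 0.11 on array 1 and 0.54 on array 2. Both were above 0, but the gap between arrays was larger than for 82.0% of genes. The mean of 0.32 ± 0.30 (SD, n = 2) did not pass, with a limma adjusted p of 0.197 and an interval from -0.20 to 0.85. The difference between the ratios of SNF4 and SNF1 was 0.57 on array 1 and 0.96 on array 2.

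The 3 genes of the beta subunits, which bridge the kinase and Snf4 and compete for the same place in the trimer, had unlike ratios. SIP2, whose protein stays in the cytoplasm, had the highest ratio of the 10 genes, at 1.48 on array 1 and 1.67 on array 2. Its single feature was 2.98-fold higher in pyruvate, with a mean of 1.58 ± 0.13 (SD, n = 2), an interval from 1.24 to 1.92 and a limma adjusted p of 0.0133. Of all genes, 7.2% had a higher mean ratio. Centred on the array medians the mean was 1.47, with a limma adjusted p of 0.00105.

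SIP1, whose protein is directed to the vacuole membrane in low glucose, stood at 0.25 on array 1 and 0.45 on array 2. Both values were above the median of their array. The mean of 0.35 ± 0.14 (SD, n = 2) did not pass, with a limma adjusted p of 0.0868 and an interval from 0.0029 to 0.70. GAL83, whose protein takes the kinase into the nucleus, stood at -0.36 on both arrays. Its features gave -0.388 and -0.331 on array 1, and -0.402 and -0.312 on array 2, all below 0. The mean of -0.36 ± 0.0018 (SD, n = 2) did not pass, with a limma adjusted p of 0.0593, and 0.0534 after centring. It passed, with 0.0479, when features with ratios of small whole numbers were left out of the fit.

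SIP2 and GAL83 are paralogues, and their ratios stood on opposite sides of 0 on both arrays. The difference, SIP2 minus GAL83, was 1.84 on array 1 and 2.03 on array 2, a mean of 1.93 ± 0.13 (SD, n = 2) or 3.82-fold. SIP2 minus SIP1 was 1.23 on array 1 and 1.22 on array 2, and SIP2 minus SNF1 was 1.94 and 2.09. An exact sign-flip test on 2 arrays cannot give a two-sided p below 0.5, the value it gave for each of the 11 pairs compared, so such differences are given as sizes. The pairs were chosen after the values were seen. These are differences between ratios and do not compare the transcript levels of different genes.

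**Figure D2:**
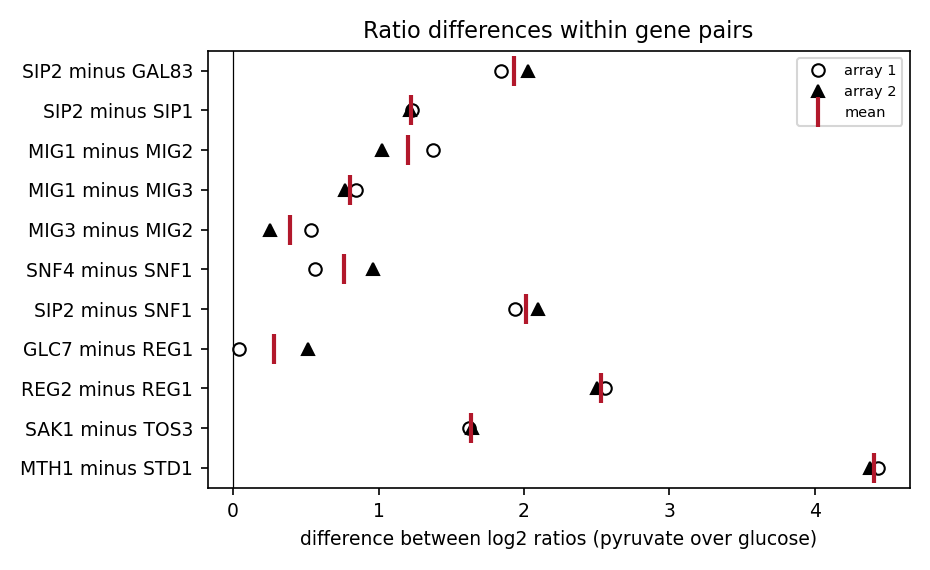
Difference between the log2 pyruvate over glucose ratios of the genes of a pair (x axis, first gene minus second) for 11 pairs (rows), with array 1 as open circles, array 2 as triangles and the mean as a bar. The arrays gave close values for SIP2 minus SIP1 (1.23 and 1.22) and values far apart for GLC7 minus REG1 (0.04 and 0.52).

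On the phosphatase side, the catalytic subunit gene rose slightly. GLC7 had ratios of 0.40 on array 1 and 0.52 on array 2, and its features lay between 0.390 and 0.542. The mean was 0.46 ± 0.08 (SD, n = 2), or 1.37-fold higher in pyruvate, with a limma adjusted p of 0.0450 and an interval from 0.15 to 0.76. This call ended with centring, where the mean was 0.36 and the limma adjusted p 0.121. Of all genes, 31.4% had a higher mean ratio than GLC7.

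REG1, which directs Glc7 to Snf1, had ratios of 0.36 on array 1 and -0.001 on array 2. Its features on array 2 lay on both sides of 0, at -0.030 and 0.028, while on array 1 both were positive, at 0.346 and 0.368. The mean of 0.18 ± 0.25 (SD, n = 2) did not pass, with a limma adjusted p of 0.369 and an interval from -0.29 to 0.65.

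Of the repressor genes, MIG1 rose. Its ratios were 1.18 on array 1 and 1.08 on array 2, and its 4 feature values lay between 1.082 and 1.208. All lay above 1. The mean was 1.13 ± 0.07 (SD, n = 2), or 2.19-fold higher in pyruvate, with a limma adjusted p of 0.0152 and an interval from 0.83 to 1.43. After centring it was 1.03, with a limma adjusted p of 0.00278. Of all genes, 12.3% had a higher mean ratio.

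MIG2, a repressor that is itself induced by glucose through the Rgt1 branch, had ratios of -0.19 on array 1 and 0.06 on array 2. The direction differed between arrays, and so did that of its features, which gave -0.211 and -0.176 on array 1 and 0.035 and 0.080 on array 2. The mean of -0.07 ± 0.18 (SD, n = 2) did not pass, with a limma adjusted p of 0.663. Its interval ran from -0.45 to 0.32. A 2-fold change in either direction lay outside it, but the interval rests on the spread between these arrays and may not cover that between cultures. MIG3, the paralogue of MIG2, had ratios of 0.34 on array 1 and 0.31 on array 2 from its single feature. The mean of 0.33 ± 0.02 (SD, n = 2) did not pass, with a limma adjusted p of 0.0691 and an interval from 0.04 to 0.61. MIG1 minus MIG2 was 1.38 on array 1 and 1.03 on array 2, MIG1 minus MIG3 was 0.85 and 0.77, and MIG3 minus MIG2 was 0.53 and 0.26.

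**Figure D3:**
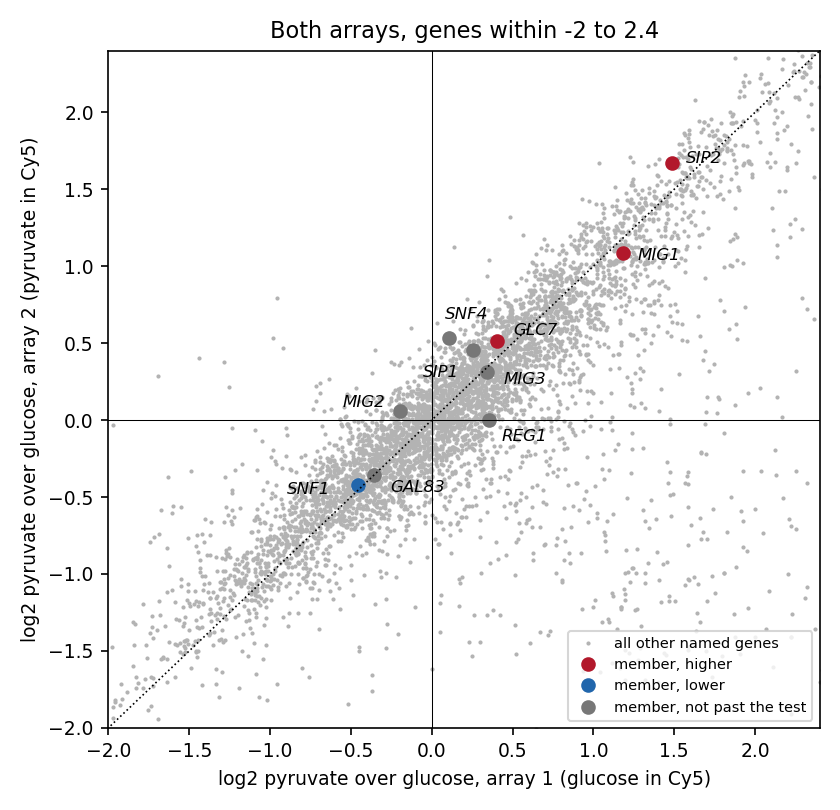
Log2 ratio of pyruvate over glucose on array 1 (x axis) and array 2 (y axis) for all named genes within the plotted range (grey) and the 10 genes (large points, coloured by limma call); the dotted line marks equal ratios. SIP2 and MIG1 lie high along that line, SNF1 and GAL83 lie below 0 on both axes, and REG1 and MIG2 lie off the line where the arrays gave opposite signs. SNF4 lies furthest off the line of the 10 genes, with 0.11 on array 1 and 0.54 on array 2.

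In order of mean ratio the genes ran SIP2, MIG1, GLC7, SIP1, MIG3, SNF4, REG1, MIG2, GAL83 and SNF1. The intervals of SIP2 and MIG1 overlapped each other. The interval of MIG1 did not reach the means of the other 8 genes, and that of SIP2 overlapped with none of theirs. From GLC7 to REG1 each mean lay inside the interval of the next gene in this order, and the means of SNF1 and GAL83 lay inside each other's intervals. The smallest change that limma called in any gene was 0.40 in size, so the means of SIP1, MIG3, SNF4, REG1, MIG2 and GAL83 were all smaller than any called change. At an unadjusted p under 0.05 the count was 7 of the 10 genes, against 56.8% of all genes.

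SIP2 lies next to MIG2 in the genome, and GAL83 lies next to MIG3, by the order of genes in the RefSeq table of assembly R64. Both SIP2 and GAL83, and both MIG2 and MIG3, are paralogues. Within these neighbouring pairs the means were unlike: SIP2 had a mean of 1.58 beside -0.07 for MIG2, and GAL83 had -0.36 beside 0.33 for MIG3. Some other neighbours had closer means, with -0.44 for SNF1 beside -0.50 for YDR476C (limma adjusted p of 0.0359) and 0.46 for GLC7 beside 0.60 for YER134C. SIP1 had 0.35 beside 0.46 for CAD1, and MIG2 had -0.07 beside -0.05 for YPT32 on its other side. ARO80, on the other side of SIP1, stood at 0.64, and SMB1, beside MIG3, at 0.56. Signs were opposite for SNM1 (0.76) beside SNF1, CDC20 (-0.35) and YGL114W (-0.53) beside SNF4, and VIR1 (-0.83) beside MIG1. They were also opposite for PMD1 (-0.20) beside GLC7 and VPS54 (-0.3) beside REG1. YGL034C, beside MIG1, and YDR029W, beside REG1, had no value. The gene on the other side of SIP2 is SPT16, which encodes a histone chaperone, at -0.73 with a limma adjusted p of 0.0221. CHO1, the phosphatidylserine synthase gene on the other side of GAL83, stood at 1.22 with a limma adjusted p of 0.0143. The neighbours on both sides of all 10 genes are given here. They were chosen by position after the values of the 10 genes were known, and were grouped by their means.

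The genes with the pair of ratios closest to that of SIP2, by Euclidean distance over the 2 arrays, were MRPS9 (1.49 on array 1 and 1.65 on array 2), MNP1 (1.48 and 1.69) and CIT2 (1.52 and 1.65). MRPS9 and MNP1 encode mitochondrial ribosomal proteins and CIT2 the peroxisomal citrate synthase. For SNF1 they were TNA1 (-0.47 and -0.44), PHO86 (-0.47 and -0.41) and GCS1 (-0.44 and -0.41). TNA1 encodes a nicotinic acid permease, PHO86 an endoplasmic reticulum protein needed for export of a phosphate transporter, and GCS1 a GTPase-activating protein of vesicle transport. Within a distance of 0.1 lay 12 genes for SIP2 and 128 for SNF1, so closeness over 2 arrays picks out few genes near SIP2 and many near SNF1.

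Upstream of the kinase, 1 of the 3 genes for Snf1-activating kinases changed, against 44.3% of all genes called in either direction. TOS3 fell, with ratios of -1.59 on array 1 and -1.46 on array 2, a mean of -1.52 ± 0.09 (SD, n = 2) and a limma adjusted p of 0.0129. SAK1, the main activating kinase and paralogue of TOS3, stood at 0.03 on array 1 and 0.19 on array 2, with a mean of 0.11 (limma adjusted p of 0.413). ELM1, a kinase that also acts in bud morphogenesis, had a mean of 0.04 (limma adjusted p of 0.753). The difference SAK1 minus TOS3 was 1.62 on array 1 and 1.65 on array 2, a mean of 3.10-fold.

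Of 16 other genes for subunits that direct or modulate Glc7, 5 rose and 2 fell, while 9 did not pass. These shares, 31.2% higher and 12.5% lower, were near the 27.1% and 17.2% of all genes. The median of the list was 0.33. Of the 5 that rose, GLC8 and YPI1 were no longer called after centring (limma adjusted p of 0.0832 and 0.0675). GAC1, which directs Glc7 to glycogen synthase, had ratios of 4.21 on array 1 and 3.20 on array 2, with a limma adjusted p of 0.0161. REG2, the paralogue of REG1, had 2.91 on array 1 and 2.50 on array 2, a mean of 2.71 ± 0.29 (SD, n = 2) with a limma adjusted p of 0.0127. REG2 minus REG1 was 2.56 on array 1 and 2.50 on array 2, or 5.77-fold. GIP2, another subunit linked to glycogen, had 1.88 on array 1 and 0.62 on array 2 and did not pass (limma adjusted p of 0.10001, and 0.0147 after centring). The genes that fell were BUD14 (-0.45 ± 0.01, SD, n = 2), a gene of polar growth, and SHP1 (-0.43 ± 0.05, SD, n = 2), a Cdc48 cofactor gene, with limma adjusted p of 0.0404 and 0.0465. GIP3, at -0.40, did not pass (limma adjusted p of 0.0595, and 0.0471 after centring).

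Among 6 genes for the corepressor and partners of Mig1, 1 rose and 0 fell, while 5 did not pass. Of all genes, 27.1% were higher and 17.2% lower. The gene that rose was NRG2, a zinc finger repressor gene, with ratios of 0.68 on array 1 and 0.85 on array 2 and a limma adjusted p of 0.0244. Its relative NRG1 had a mean of 0.38 (limma adjusted p of 0.0638) and HXK2, the hexokinase that takes part in Mig1 repression, had 0.53 (0.101). The corepressor genes CYC8 and TUP1 had means of -0.12 (limma adjusted p of 0.465) and -0.40 (0.0541, and 0.0445 after centring). MSN5, the exportin that carries Mig1 out of the nucleus, had a mean of 0.05 (limma adjusted p of 0.636).

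Downstream of the kinase, the medians of the lists for activators and their target genes, between 1.62 and 5.10, were above the median of 0.32 of the 10 genes, while single genes of the activator and Mig lists lay below SIP2. Of 6 genes for transcription activators that work downstream of Snf1, 4 rose and 0 fell, while 2 did not pass. Across all genes 27.1% were higher and 17.2% lower. The median of these 6 was 1.62. CAT8, activator of gluconeogenic genes, had ratios of 4.58 on array 1 and 4.17 on array 2. ADR1, activator of genes for ethanol and fatty acid use, had 3.15 on array 1 and 3.03 on array 2. HAP4, the limiting subunit of the activator of respiratory genes, had a mean of 1.12 and RDS2 a mean of 0.78. Their limma adjusted p ran up to 0.0213 (HAP4). SIP4, an activator of the same gluconeogenic genes, had 3.29 on array 1 and 0.94 on array 2 and did not pass (limma adjusted p of 0.116, and 0.0140 after centring), and ERT1, with 0.13 and -0.45, did not pass either (0.564).

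Of 21 genes known to be repressed through Mig proteins, 17 rose and 0 fell, while 4 did not pass. Across all genes 27.1% were higher and 17.2% lower. The median of these 21 was 2.27. Of the 17, 16 were at least 2-fold higher on both arrays, and HAP4 was at 0.96 on array 1. The list was chosen with earlier results of these data known. The highest means were in JEN1, the lactate and pyruvate permease (5.78), FBP1, the fructose bisphosphatase (5.53), and HXK1, a hexokinase gene (4.84). The lowest were in GAL1 (0.94 on array 1 and -0.07 on array 2), the galactokinase, GAL10 (1.59 and -1.04), the galactose epimerase, and HXT13 (2.61 and -2.11), a minor hexose transporter. These 3 genes did not pass, and each had opposite signs on the arrays. Separately, HXT13 has near-identical relatives whose transcripts its probes may bind, which was not tested. The list also holds MAL12 and MAL32, which are almost the same in sequence, so that their values cannot be separated with certainty.

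All 15 genes of the list activated by Cat8, Sip4 or Adr1 rose, against 27.1% of all genes, with a median of 5.10. This list too was chosen with earlier results of these data known. The highest mean was in ADH2, the alcohol dehydrogenase used on ethanol (6.06), followed by JEN1 and FBP1. The lowest means were in MDH2, the cytosolic malate dehydrogenase (1.93), FOX2, an enzyme of fatty acid oxidation (3.13), and ACS1, an acetyl-CoA synthetase (3.64). The smallest of these means was larger than that of SIP2.

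In the glucose sensor and Rgt1 branch, which controls MIG2 and hexose transporters, 2 of 10 genes rose and 2 fell, while 6 did not pass. These shares, 20% in each direction, were near the 27.1% higher and 17.2% lower of all genes. The median of the branch was -0.18. MTH1, a corepressor protein gene of Rgt1, had ratios of 3.33 on array 1 and 2.93 on array 2, whereas its paralogue STD1 had -1.10 on array 1 and -1.45 on array 2. SNF3, the sensor of low glucose, had 2.11 on array 1 and 2.13 on array 2, whereas RGT2, the sensor of high glucose, had -0.31 and -0.85 and did not pass (limma adjusted p of 0.103, and 0.0196 after centring). HXT3, a low-affinity transporter, had -2.63 on array 1 and -2.32 on array 2. The limma adjusted p of MTH1, SNF3, STD1 and HXT3 ranged from 0.0118 (SNF3) to 0.0196 (STD1). RGT1 itself had a mean of 0.35 and did not pass (limma adjusted p of 0.0745). MTH1 minus STD1 was 4.43 on array 1 and 4.38 on array 2.

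**Figure D4:**
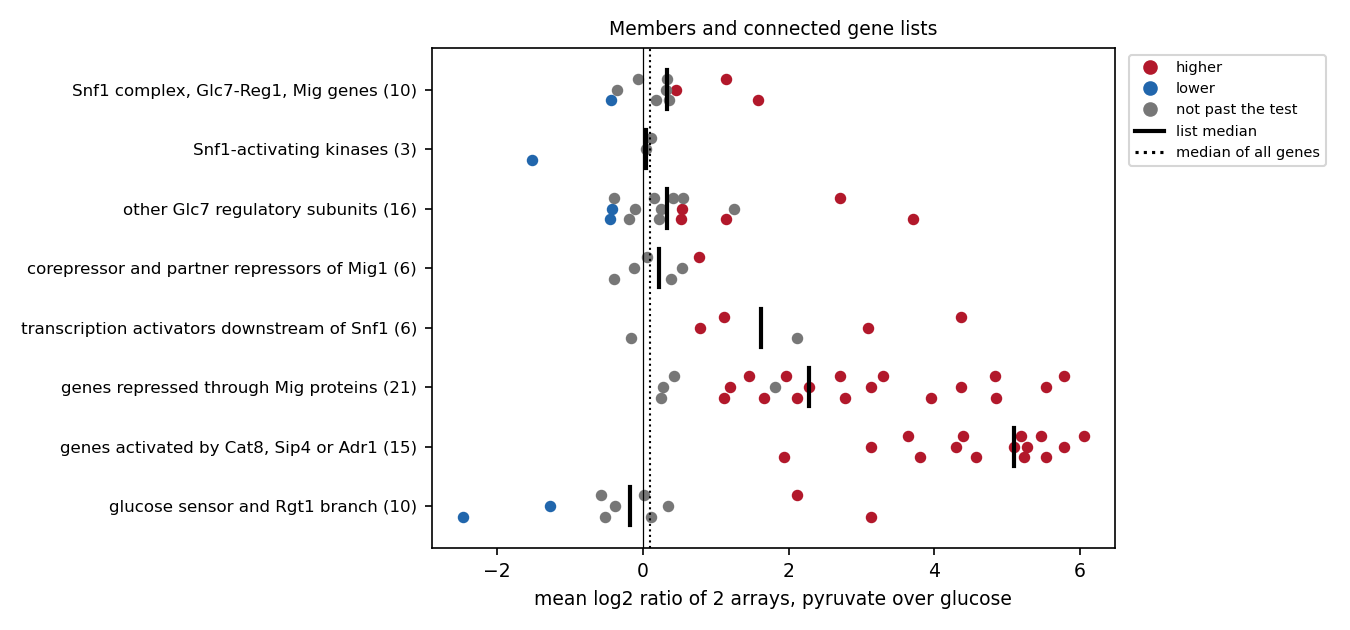
Mean log2 ratio of pyruvate over glucose on 2 arrays (x axis) for the 10 genes and for 7 lists of connected genes (rows, number of genes in brackets), each point a gene coloured by limma call, with list medians as bars and the median of all genes as a dotted line; some genes are in 2 lists. The 10 genes lie between -0.44 and 1.58, and the genes activated by Cat8, Sip4 or Adr1 between 1.93 and 6.06.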

How the data were processed

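The values used were the authors' deposited log2 ratios of 10807 features on 2 arrays. Per the labels, total RNA was labelled with an Agilent linear amplification kit and hybridised by the maker's instructions, with a dye swap. The sources used here give no scanner, background correction, scaling or channel order. That the base is 2 follows from 935 features of array 1 at log2 of small whole-number ratios (numbers up to 10), where other offsets gave a median of 136. The number of arrays limits the precision. The deposited ratios of the arrays correlated at -0.809 over features of named genes, 0.861 over unnamed features and 0.157 over all features, so unnamed features did not turn with the dyes.

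The platform annotation named a single gene for 9202 features, several for 0 and no gene for 1605, and 9194 could be given current names. Features were averaged per gene and array. All 5598 genes went through limma 3.58.1 in R 4.3.3 (lmFit, eBayes, 1 residual and 1.67 prior degrees of freedom) and Benjamini-Hochberg adjustment, with no filter on low values. The dye was not a term, since none could be estimated beside the spread. The steps were run on simulated data with the same spread for every gene, few changed genes and no dye effect. That setting differs from these arrays, so it gives no error rate for the calls here. Python 3.11.15 was used for tables and plots.

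The 10 genes, the lists and the tests were chosen with earlier results of these data known. By rule the text names all 10 genes, every gene of lists of up to 6 genes, the 3 highest and 3 lowest genes of longer lists, and the 3 genes closest to the highest and lowest of the 10. Genes named besides these were chosen after their values were seen. A planned comparison of promoters and proteins was not run, since no sequences were used here. Alternatives changed the centring, scaling, moderation, features, small whole-number ratios, threshold and arrays.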

Additional observations from a re-analysis of the deposited data

How the results depend on the processing

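REG1 and MIG2 had opposite signs on the 2 arrays. Only centring and scaling changed the means of the 10 genes, so the other alternatives on both arrays could not turn a direction. Directions of all 10 genes held in the alternatives run on both arrays. MIG1 was called in these, as was SIP2 wherever it was in the fit, except without moderation and in the fit of all features one by one, where 0 genes of the 10 and 0 of the 70 connected genes were called in either direction. At an unadjusted p under 0.05 those fits held 5 and 4 of the 10, and 32 and 43 of the 70. Across the array the counts were 1580 of 5598 genes and 4409 of 10792 features. In fits of single features, a gene took the largest p of its features, and a call needed all of them in the same direction. Without moderation limma called 10 of 5598 genes, and in the fit of all features, which takes in those without a gene name, 0 of 10792. Fitted on features of named genes alone, an alternative chosen after seeing the data, 3 of the 10 were higher and 0 lower. In that fit 42.9% of features were called in either direction. At an adjusted p of 0.10, 5 of the 10 were higher and 2 lower, against 58.8% of all genes called in either direction. Of the 70 genes 8 were lower at that threshold. Against a 1.5-fold minimum change SIP2 and MIG1 were called, with 0 of the 10 and 2 of the 70 lower. That fit called 13.5% of all genes in either direction. Without features at ratios of whole numbers, 2 of the 10 and 8 of the 70 were lower, against 1 and 5 in the reported fit. Of all genes 51.8% were then called in either direction, against 44.3% in the reported fit. Centring moved the median of the 10 genes to 0.22, with 9 of the 70 and 22.5% of all genes lower. It raised limma's prior degrees of freedom to 5.28, against 1.67. Of the 70 it added 7 calls (SIP4, GIP2, GAL4, GIP3, TUP1, RGT2 and YCK2) and ended 2 (GLC8 and YPI1). Scaling moved that median to 0.23. Leaving out genes with 1 feature or with features over 0.5 apart left 7 of the 10, with a median of 0.18. It left 22 higher of 42 connected genes, against 37 of 70. Of the 3506 genes in that fit, 48.6% were called in either direction. Of the values of single genes, 13 lost a call under an alternative and 4 gained a call. Single arrays gave a median of 0.30 to 0.38, with no test. The causes of these shifts were not tested, apart from the fewer genes by construction. No paired analysis was possible because there is 1 group of ratios and no other group to pair it with; each ratio already sets pyruvate against glucose within an array. Signals over background are not part of the values used, so saturated spots could not be sought.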
